A study of Mus musculus with 2 samples.

Results

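The genes of MHC class II antigen presentation were followed across the cell classes of the mouse lung. The 10 genes, chosen by symbol, were the chains of the presenting molecules (H2-Aa, H2-Ab1, H2-Eb1), the invariant chain Cd74, the peptide-exchange molecule H2-DM (H2-DMa, H2-DMb1, H2-DMb2), its inhibitor H2-O (H2-Oa, H2-Ob) and the transactivator Ciita. All 10 were found among the 32286 features of the matrices. Single-cell RNA sequencing was available for 2 libraries from lungs of female BALB/c mice aged 9 to 10 weeks, 1 library per group. Mice of the CM group received intravenous injections of control media over 3 weeks. Those of the TCM group received, over the same 3 weeks, medium in which pieces of 4T1 mouse breast tumors had been kept, a procedure that conditions the lung without a tumor in the animal. Control media was the same medium kept without tumor. The number of mice behind a library was not stated in the sources used here.

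Each group being 1 library, the variation between mice is unknown. No test was therefore run, and the intervals given in parentheses are 95% intervals that cover counting error only.

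MHC class II molecules display peptides from internalised proteins to CD4 T cells. An α and a β chain assemble in the endoplasmic reticulum with the invariant chain, which blocks the groove and leads the complex to the endosome. There H2-DM exchanges the remnant of the invariant chain for peptide, and H2-O restrains H2-DM. Ciita is recruited to the promoters of these genes by proteins bound to their X and Y boxes, and is induced by interferon-γ. In the lung, dendritic cells, B cells and macrophages are the professional presenting cells. Alveolar type II (AT2) cells, which make surfactant, are known to carry class II constitutively, and endothelial cells can carry it as well.

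In the GRCm38 annotation, 8 of the genes lay on chromosome 17 within 224 kb, between positions 34092340 and 34316674, all of them protein-coding. Ciita was on chromosome 16 (10480059 to 10528418, plus strand). Cd74 lay on yet another chromosome. BALB/c mice carry another haplotype of this region than the strain of the reference genome, and the effect of that on the counts was not tested.

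Upstream sequence was read from the RefSeq promoter table of build GRCm38.p6, which had entries for 7 of the members. Within the 250 bases before the start, the Y box letters GATTGG stood on the gene strand in all 7, for H2-DMa in 1 of its 2 entries. The X box letters GCAAC preceded them by 15 to 40 bases in 4, namely H2-Oa, H2-Ob, H2-Aa and H2-Eb1. Over both strands, GATTGG was found in 14.6% of all 32851 promoter windows of this length, GCAAC in 29.9%, TGATG (letters of the X2 box, which follows the X box) in 34.5%, and the spaced pair of X and Y box letters in 0.381%. The stretches that end with the Y box are shown for these 4 genes, because Ciita is known to act through these boxes. Capitals mark the letters searched for, which may overlap one another and which were chosen after the promoters had been read.
H2-Aa (chr17:34287867-34287912, minus strand): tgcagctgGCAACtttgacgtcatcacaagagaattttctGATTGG
H2-Eb1 (chr17:34305767-34305812, plus strand): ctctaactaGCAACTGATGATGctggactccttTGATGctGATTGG
H2-Oa (chr17:34092295-34092340, plus strand): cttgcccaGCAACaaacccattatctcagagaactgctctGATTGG
H2-Ob (chr17:34238807-34238852, plus strand): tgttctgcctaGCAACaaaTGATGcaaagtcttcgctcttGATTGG
The spacing between the boxes was nearly the same in the 4 genes, from 24 bases in H2-Ob to 27 in H2-Aa and H2-Oa.

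The CM library held 31944151 UMIs (unique molecular identifiers, 1 per captured RNA molecule) and the TCM library 36648719. Cells were droplets of at least 500 UMIs and 200 genes with at most 10% mitochondrial UMIs, 7988 in CM with a median of 2085 UMIs and 7707 in TCM with 2346. A cell was given a class where at least 3 of that class's marker genes were present and led every other class, which placed 5751 CM and 6008 TCM cells. The 2 libraries shared 93 barcodes among these cells, where the product of their sizes gives 83.5. A class cut in this way is a range of marker counts and not a type: in classes of at least 50 cells per library, between 2 (TCM smooth muscle) and 102 (all CM endothelial) cells stood at the minimum of 3 markers. Of the markers of any other class, the median cell carried at most 3. Levels are given as CP100k, the UMIs of a gene per 100000 UMIs of the class.

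Summed over the 10 genes, the class II level was highest in conventional dendritic cells, at 8412 CP100k in CM (8324 to 8500) and 9640 in TCM (9554 to 9726). Interstitial macrophages followed with 7620 and 6627 CP100k, and B cells with 4417 and 4548. AT2 cells stood at 645 and 681 CP100k. Monocytes lay above AT2 cells in CM, at 732 CP100k (706 to 759), and below them in TCM, at 202 (193 to 211). General capillary cells, the more abundant capillary endothelium of the alveolus, had 165 and 105 CP100k.

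Below these levels the order was less distinct. Aerocyte capillary cells, the large thin cells of gas exchange, had 56.4 and 32.0 CP100k, alveolar macrophages 51.3 and 45.3, AT1 cells 43.9 and 58.6, and neutrophils 37.3 and 63.1. In CM the intervals of aerocyte capillary cells (50.5 to 62.8) and alveolar macrophages (47.3 to 55.5) overlapped. T cells had 16.2 CP100k in CM and 21.0 in TCM, within the range of 7.41 to 21.3 CP100k of natural killer cells, fibroblasts, pericytes and smooth muscle in either library.

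**Figure D1:**
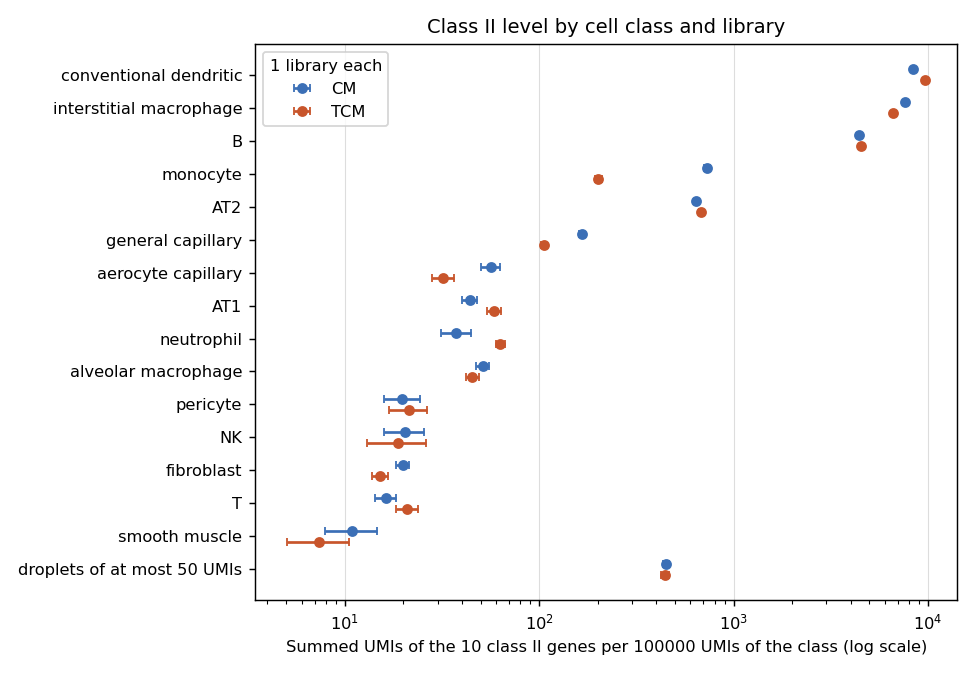
Summed UMIs of the 10 class II genes per 100000 UMIs of each cell class (log axis), with CM in blue and TCM in orange, 1 library each; bars are 95% Poisson intervals. Dendritic cells, interstitial macrophages and B cells lie between 4417 and 9640, general capillary cells and monocytes sit lower in TCM, and the droplets of at most 50 UMIs stand at 452 and 445.

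Free RNA, which droplets take up from outside cells, was measured in the droplets of at most 50 UMIs. They held the class II genes at 452 CP100k in CM (436 to 468) and 445 in TCM (426 to 466), so the free RNA of both libraries was alike in this respect. Its amount, from hemoglobin and secretoglobin genes in classes that lack them, came to 131 UMIs for a cell of CM and 259 for one of TCM. That predicts 0.592 and 1.15 class II UMIs per cell, above the 0.395 and 0.489 measured per T cell. The prediction is therefore too high at least in T cells, and by more in TCM than in CM. The measured class II UMIs per cell were 5.60 and 4.05 in general capillary cells, 22.9 and 36.1 in AT2 cells, and 83.0 and 86.3 in B cells. Natural killer cells, fibroblasts, pericytes and smooth muscle had between 0.336 and 0.695 per cell, near the level of T cells.

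The 10 genes did not rise and fall as 1 block from class to class. The proportions set side by side below for H2-O, H2-DMa, the H2-DM β chains and H2-Ab1 were chosen after their values were seen. Across 15 classes in both libraries (30 points that share their libraries), H2-Aa and Cd74 followed the sum of the other members most closely, each with a Pearson r of 0.990 on log2(CP100k + 1). H2-DMa had an r of 0.856, H2-Oa 0.623 and H2-Ob 0.611. The same measure over all genes outside the members and the markers put Fgd2 (0.935), Cd83 (0.904), Ifi30 (0.871), Rogdi (0.860) and Cd86 (0.858) nearest to the summed members. Cd83 and Cd86 are surface proteins of activated presenting cells, and Ifi30 is a lysosomal reductase that prepares antigens for loading. For Ciita the nearest genes were Fgd2 (0.947), Cd83 (0.896), Hepacam2 (0.868), Cd86 (0.839) and Snx8 (0.824).

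H2-O separated B cells from the other strong class II classes. H2-Oa reached 21.5 CP100k in CM B cells (249 UMIs) and 22.4 in TCM (140 UMIs), and H2-Ob 14.1 (164 UMIs) and 11.7 (73 UMIs). Dendritic cells held H2-Oa at 8.57 and 8.56 CP100k. Interstitial macrophages, with more class II RNA per cell than B cells, had 1 UMI of H2-Oa in each library and 1 UMI of H2-Ob in all. As a share of all class II UMIs, H2-Oa made up 0.486% in CM B cells (0.428 to 0.550), 0.102% in dendritic cells (0.0713 to 0.141) and 0.00352% in interstitial macrophages (8.9e-05 to 0.0196). These intervals do not overlap. AT2 cells held 3 UMIs of H2-O in CM and 0 in TCM among 8682 and 10891 class II UMIs.

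T cells carried H2-O in a proportion of their own. H2-Oa had 23 UMIs in 20 of 668 CM T cells (2.99%, 1.84 to 4.59) and 16 UMIs in 15 of 505 TCM T cells (2.97%, 1.67 to 4.85). Its level in T cells was 1.4 CP100k in both libraries, far below the 21.5 and 22.4 of B cells. In T cells this came to 205 UMIs of H2-Oa per 1000 of Cd74 in CM and 148 in TCM. Subtracting free RNA as estimated left Cd74 at 0 in T cells of both libraries. The ratio therefore rests on a Cd74 level no higher than that estimate, and is not a measure of H2-O level. The same ratio was 8.28 and 8.44 in B cells and 2.70 and 1.81 in the droplets of at most 50 UMIs. H2-Ob, with 10 and 8 UMIs, stood at 89.3 and 74.1 per 1000 of Cd74 in T cells, against 5.45 and 4.40 in B cells. Ciita had 0 UMIs in T cells of either library, with upper bounds of 0.227 CP100k in CM and 0.313 in TCM.

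H2-DMa was out of proportion in alveolar macrophages. These cells held 284 UMIs of H2-DMa in CM (23.8 CP100k, 21.1 to 26.7) and 305 in TCM (20.9, 18.7 to 23.4), beside 222 and 257 UMIs of Cd74. H2-DMa thus made up 46.4% and 46.2% of their class II UMIs, against 1.03% and 1.17% in B cells and 1.17% and 1.41% in the droplets of at most 50 UMIs. Other classes poor in class II had raised shares too, 12.5% and 11.3% in T cells and 14.1% and 8.82% in natural killer cells. Monocytes had 4.20% and 13.4%. The level of H2-DMa itself was higher in monocytes (30.8 and 27.0 CP100k) and interstitial macrophages (72.4 and 71.6) than in alveolar macrophages. The partner chains H2-DMb1 and H2-DMb2 had between 5 and 13 UMIs each. H2-Aa had only 29 and 33 UMIs, 2.43 and 2.27 CP100k, about the level of T cells (2.28 and 3.74).

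The 2 β chains of H2-DM were used unequally. In CM B cells H2-DMb2 had 1528 UMIs and H2-DMb1 57, and in TCM B cells 811 and 44. Dendritic cells held the pair at 312 and 217 UMIs in CM and at 540 and 227 in TCM, interstitial macrophages at 169 and 125 and at 170 and 106. H2-DMb1 therefore made up 0.111% of the class II UMIs of CM B cells (57 of 51235) and 0.614% of those of dendritic cells (217 of 35354). Stretches of 60 bases shared between the transcripts cover 23.4% of H2-DMb1 and 18.1% of H2-DMb2, so part of the reads of these genes cannot be told apart and their split is uncertain.

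H2-Ab1 was prominent in capillaries. In general capillary cells there were 593 UMIs of H2-Ab1 per 1000 of Cd74 in CM and 709 in TCM. The ratio was 132 and 142 in B cells, 229 and 239 in dendritic cells, 157 and 179 in interstitial macrophages, and 123 and 124 in AT2 cells. Aerocyte capillary cells stood at 400 and 469, and large vessel endothelium at 326 and 353. Natural killer cells, with only 15 and 4 UMIs of H2-Ab1, had 454.5 and 200. The free RNA stood at 166 and 183, so the class II RNA of capillary cells did not have its proportions.

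**Figure D2:**
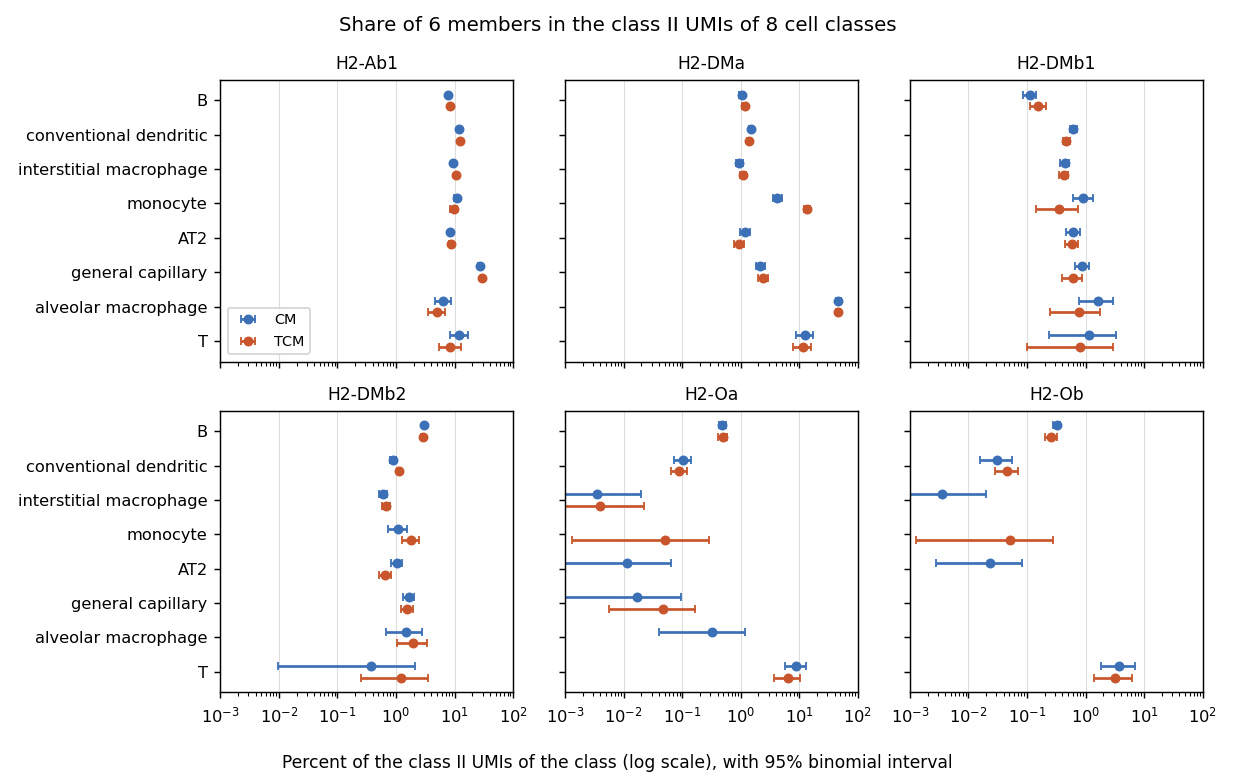
Share of 6 members in the class II UMIs of 8 cell classes (percent, log axis), CM in blue and TCM in orange, with 95% binomial intervals; a member with 0 UMIs has no point. H2-Ab1 stands highest in general capillary cells (26.6% and 29.7%), H2-DMa in alveolar macrophages (46.4% and 46.2%), and H2-Oa and H2-Ob in T cells and then B cells.

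The comparison of TCM with CM asks whether factors released by the tumor alter these genes in resident and recruited cells. A gene was counted as higher or lower where its ratio was at least 1.5-fold (0.58 on the log2 scale) with an interval that leaves out 0, among genes with at least 20 UMIs over both libraries of the class. Those are counts past a fold and not a test. The condition on the interval was added after the counts by the fold alone had been seen, and the latter are given at the end where they differ.

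In general capillary cells all 8 members with enough UMIs were lower in TCM. Cd74 had 2661 UMIs in CM (74.3 CP100k, 71.5 to 77.1) and 1808 in TCM (44.1, 42.1 to 46.2), a level 1.68-fold lower. The log2 ratio was −0.75 (−0.84 to −0.66). H2-Aa went from 24.0 to 15.6 CP100k (log2 ratio −0.62, −0.77 to −0.47), H2-Eb1 from 14.5 to 8.91 (−0.70, −0.90 to −0.51) and H2-Ab1 from 44.0 to 31.3 (−0.49, −0.60 to −0.39). All 4 intervals stay below 0, and H2-Ab1 falls short of the 1.5-fold limit.

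The peptide-exchange genes moved the same way in these cells. H2-DMb1 had 52 UMIs in CM and 26 in TCM (−1.19, −1.93 to −0.49), H2-DMb2 97 and 67 (−0.73, −1.20 to −0.26) and H2-DMa 128 and 103 (−0.51, −0.90 to −0.12). Ciita had 33 and 28 UMIs, and its interval (−1.21 to 0.34) includes 0. By the rule, 5 of the 8 members counted as lower, where 2.83% of the 10944 genes of the class did. The median ratio of the members was −0.66 and that of all genes −0.00.

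The lower level was spread over many capillary cells. Cd74 was present in 593 of 1058 CM cells (56.0%, 53.0 to 59.1) and in 508 of 1068 TCM cells (47.6%, 44.5 to 50.6), although TCM cells were deeper, with a median of 3088 against 2562 UMIs. After every cell was thinned to 1000 UMIs, which left 908 and 990 cells, the shares were 36.3% (33.2 to 39.6) and 25.5% (22.8 to 28.3). T cells, which should lack Cd74, had 6.70% and 9.69% after the same thinning, at median depths of 2382 and 2379 UMIs, so their share was not lower in TCM. The 10 cells richest in Cd74 held 9.85% of its UMIs in CM and 13.3% in TCM. Free RNA as estimated would account for 10.6% of the class II UMIs of these cells in CM and 28.5% in TCM, and the median ratio of the members after its subtraction was −0.94. The same estimate came to 150% of the class II UMIs of T cells in CM and 235% in TCM. Its subtraction may thus take too much, and more so from TCM. Subtracting the UMIs found per T cell instead gave −0.82.

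The cells gated as general capillary fell mainly into 2 clusters, formed without the class II genes and compared after the class as a whole had been. The larger one was led by Myl7, Ccl21a, Myl4 and Vwf, with Ptprb and Plvap also among its leading genes. Of these, Ccl21a and Vwf stood on the marker lists of lymphatic and large vessel endothelium. In its cells gated as general capillary the summed level was 174 CP100k in 672 CM cells and 121 in 642 TCM cells (log2 ratio −0.53, −0.60 to −0.45). In the other, led by the interferon- and stress-inducible genes Iigp1, Irgm1, Atf3 and Ier3, it was 152 CP100k in 244 CM cells and 89.1 in 352 TCM cells (−0.77, −0.88 to −0.66). Both clusters were thus lower in TCM. Of the cells gated as general capillary, 9.55% in CM and 12.9% in TCM carried at least 2 dendritic markers. Without the cells that carried 2 such markers, or 2 of B cells or interstitial macrophages, the level was 169 and 108 CP100k.

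Aerocyte capillary cells showed lower values too, from far fewer UMIs. Cd74 had 180 UMIs in CM (30.6 CP100k) and 113 in TCM (15.6), with −0.97 (−1.32 to −0.62) as log2 ratio. H2-Aa (50 and 35 UMIs) stood at −0.81 and H2-Ab1 (72 and 53 UMIs) at −0.74, while the interval of H2-Eb1 (−1.94 to 0.02) includes 0. Of the 4 members with enough UMIs, 3 counted as lower, where 2.66% of the 7182 genes of the class did. Free RNA as estimated would account for 31.5% of their class II UMIs in CM and 96.2% in TCM, and its subtraction left Cd74, H2-Aa and H2-Eb1 at 0 in TCM. The direction did not hold when cells were taken by cluster in place of the gate, which gave a median ratio of 0.23 against −0.87. Large vessel endothelium, with 58 and 41 cells, had 54.4 CP100k in CM (43.6 to 67.0) and 73.4 in TCM (60.5 to 88.2), intervals that overlap. The log2 ratio was 0.43 (0.02 to 0.85). The 10 cells richest in Cd74 held 82.6% of its UMIs in CM and 88.2% in TCM. After thinning, 36.0% of CM and 32.5% of TCM cells had a class II UMI, while the mean per cell was 0.46 and 0.70. No direction was therefore fixed in this class.

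As a set, other genes of the pathway stayed nearer to 0 in general capillary cells, with a median ratio of −0.02 against −0.66 for the members. The list held regulators of class II transcription, the interferon-γ arm, antigen-processing enzymes, surface turnover, costimulation and T cell partners. Of its 25 genes with enough UMIs, 0 counted as higher and 0 as lower, where 5.23% of all genes counted in either direction. The interferon-γ receptor chain Ifngr2 had 293 and 244 UMIs (−0.46, −0.71 to −0.21). Irf1, a transcription factor induced by interferon-γ, had 2182 and 2512 UMIs (0.01, −0.07 to 0.09). These 2 genes lie outside the rule for named genes and were chosen after their values were seen.

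Among classes with at least 50 cells per library, the summed class II level differed most in monocytes. In 104 CM cells Cd74 had 1779 UMIs (438 CP100k, 418 to 459), and in 205 TCM cells 1075 (110, 104 to 117), a level 3.97-fold lower. The log2 ratios were −1.99 for Cd74 (−2.10 to −1.88), −2.11 for H2-Aa (498 and 278 UMIs), −2.03 for H2-Ab1 (321 and 189) and −1.94 for H2-Eb1 (187 and 117). H2-DMb1 had 27 and 7 UMIs (−3.21, −4.66 to −1.98) and H2-DMb2 32 and 35 (−1.13, −1.87 to −0.40). By the rule 6 of 7 members counted as lower, where 6.3% of the 6100 genes of the class did. The median ratio of the members was −1.99 and that of all genes 0.02.

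H2-DMa was the exception among the monocyte members. It had 125 UMIs in CM (30.8 CP100k, 25.6 to 36.7) and 263 in TCM (27.0, 23.8 to 30.4), and its ratio of −0.19 has an interval that includes 0 (−0.50 to 0.13). A UMI of H2-DMa was found in 50 of 104 CM and 112 of 205 TCM monocytes. Its part of the monocyte class II UMIs was 4.20% in CM and 13.4% in TCM.

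A few cells carried most of the class II RNA of monocytes. The 10 cells richest in Cd74 held 74.4% of its UMIs in CM and 70.5% in TCM, and for H2-Aa the shares were 82.7% and 82.4%. After thinning to 1000 UMIs the median monocyte had 0 class II UMIs in both libraries. The 90th percentile was 17 in CM and 3 in TCM. All 4 of H2-Aa, H2-Ab1, H2-Eb1 and Cd74 were present in 8 of 92 CM cells (8.70%, 3.83 to 16.4) and in 7 of 191 TCM cells (3.66%, 1.49 to 7.41), intervals that overlap. The monocyte ratio therefore rests on few cells, whose identity beyond the gate was not tested.

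The make-up of the monocytes also differed between the libraries. Classical monocytes numbered 45 in CM and 168 in TCM, non-classical ones 57 and 33. Within the classical cells the summed level was 697 CP100k in CM (664 to 732) and 158 in TCM (150 to 167), and the log2 ratio was −2.14 (−2.24 to −2.04). H2-DMa was also lower within the classical cells, at 38.5 and 27.9 CP100k (−0.46, −0.82 to −0.10), short of the 1.5-fold limit. Non-classical cells, which patrol vessels, had 836 and 560 CP100k (−0.58, −0.73 to −0.43). The 10 non-classical cells richest in Cd74 held 92.2% of its UMIs in CM and 94.6% in TCM. After thinning, the mean class II UMIs per cell were 5.33 and 5.27 in non-classical cells, so no difference was seen at equal depth. In classical cells the means were 6.17 and 1.74. The 10 classical cells richest in Cd74 held 92.5% of its UMIs in CM and 82.7% in TCM. All 4 of H2-Aa, H2-Ab1, H2-Eb1 and Cd74 were present in 3 of 42 CM and 4 of 157 TCM classical cells after thinning. No class II UMI was found in 50% of these CM cells (34.2 to 65.8) and 60.5% of these TCM cells (52.4 to 68.2). These intervals overlap, and the classical ratio rests on few cells as well. Of the CM monocytes 5.77% carried at least 2 dendritic markers, and of the TCM monocytes 14.1%. Leaving out cells with 2 markers of dendritic cells, B cells or interstitial macrophages gave 788 and 248 CP100k in 95 and 151 cells.

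Among the pathway genes of monocytes, 2 of 23 counted as higher and 3 as lower, where 12.4% of all genes of the class did in either direction. The endosomal proteases Ctsl (48 and 391 UMIs, log2 ratio 1.76, 1.33 to 2.23) and Ctsd (55 and 347 UMIs, 1.39, 0.98 to 1.83) were higher in TCM. Creb1, which binds the X2 box, was lower (27 and 25 UMIs, −1.38, −2.22 to −0.54), as was the interferon-γ target Irf1 (45 and 60 UMIs, −0.85, −1.43 to −0.26).

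**Figure D3:**
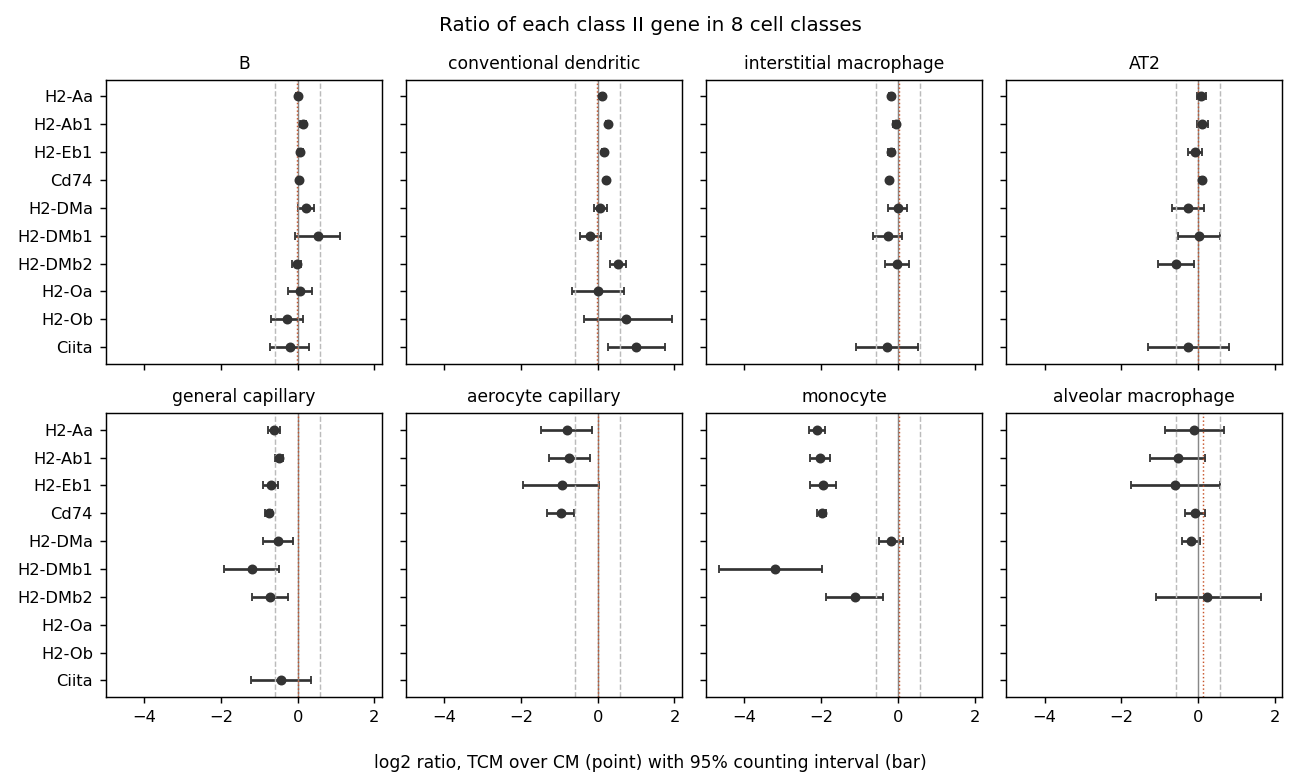
Log2 ratio of TCM over CM for each class II gene with at least 20 UMIs in 8 cell classes; points are ratios, bars 95% counting intervals, dashed lines the 1.5-fold limit and the dotted line the median of all genes of the class. General capillary cells lie between −1.19 and −0.43, monocytes between −3.21 and −1.13 except H2-DMa at −0.19, and B and AT2 cells around 0.

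AT2 cells kept their class II level close to that of CM. Cd74 had 5979 UMIs in 379 CM cells (444 CP100k, 433 to 456) and 7605 in 302 TCM cells (475, 465 to 486), and its log2 ratio was 0.10 (0.05 to 0.15). H2-Aa stood at 93.5 and 99.4 CP100k (0.09, −0.02 to 0.20), H2-Ab1 at 54.8 and 59.0 (0.11, −0.03 to 0.25) and H2-Eb1 at 32.9 and 31.2 (−0.08, −0.27 to 0.11). H2-DMb2 was the member with an interval below 0 (89 and 71 UMIs, −0.58, −1.05 to −0.11). By the rule 0 of 8 members counted in either direction, where 8.91% of the 8887 genes of the class did.

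Most AT2 cells carried class II RNA. A UMI of Cd74 was found in 92.9% of 266 thinned CM cells (89.1 to 95.6) and in 92.3% of 284 thinned TCM cells (88.5 to 95.1). The median thinned cell held 5 class II UMIs in CM and 6 in TCM, against 0 in T cells. Thinning left out 113 CM and 18 TCM cells, since the median depth of AT2 cells was 1641 UMIs in CM and 5050 in TCM. Free RNA as estimated would account for 2.58% and 3.19% of their class II UMIs. Of the 22 pathway genes, 1 counted as higher in TCM, Creb1, with 22 and 49 UMIs (0.91, 0.15 to 1.70), and 0 as lower.

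B cells differed little between the libraries. Cd74 stood at 2593 CP100k in 617 CM cells and 2657 in 329 TCM cells (log2 ratio 0.03, 0.01 to 0.06), H2-Aa at 843 and 850 (0.01, −0.04 to 0.06) and H2-Ab1 at 341 and 378 (0.15, 0.07 to 0.22). Ciita had 109 and 51 UMIs (−0.20, −0.71 to 0.29). By the rule 0 of 10 members counted, where 5.98% of all genes did. After thinning, the median B cell held 46 class II UMIs in both libraries. Of 28 pathway genes, 0 counted as higher and 0 as lower.

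In dendritic cells the summed class II level was slightly higher in TCM (log2 ratio 0.20, 0.18 to 0.22). Ciita counted as higher, with 24 UMIs in 54 CM cells and 57 in 66 TCM cells (0.99, 0.28 to 1.74), and it was 1 of 10 members to do so where 4.19% of all genes did. H2-DMb2 had 312 and 540 UMIs (0.53, 0.33 to 0.74), and Cd74 4276 and 4961 CP100k (0.21, 0.19 to 0.24). Cells led by cDC1 markers numbered 32 and 31, those led by cDC2 markers 15 and 28, a division made after the values of the class were seen. In cDC1 cells, which present antigen of dead cells, the summed level was 8785 and 8792 CP100k. In cDC2 cells it was 8362 and 10498. Ciita went from 21 to 43 UMIs in the former and from 3 to 11 in the latter.

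Dendritic cells led by maturation markers such as Ccr7 were rare, 6 in CM and 3 in TCM. They kept Cd74 at 3825 and 5637 CP100k, and had H2-DMb1 at 0 UMIs and Ciita at 0 and 1 UMIs. Over all dendritic cells, 1 of 23 pathway genes counted as higher and 2 as lower, where 7.92% of all genes counted in either direction. The protease Ctsd had 1 and 22 UMIs (4.20, 1.57 to 9.57), Lgmn, an endosomal endopeptidase, 24 and 12 (−1.26, −2.39 to −0.20), and the costimulatory receptor Cd40 48 and 36 (−0.67, −1.34 to −0.02).

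Interstitial macrophages were slightly lower in TCM when UMIs were summed, with a median ratio of −0.19, and stood at 0.01 when cells were averaged instead. Cd74 went from 4563 to 3866 CP100k (log2 ratio −0.24, −0.27 to −0.21) and H2-Aa from 1340 to 1179 (−0.18, −0.24 to −0.13), in 85 and 86 cells. By the rule 0 of 8 members counted, where 6.35% of all genes did. Ciita had 31 and 26 UMIs, and 0 of 20 pathway genes counted in either direction. In alveolar macrophages 0 of 6 members counted, where 7.1% of all genes did. Of 26 pathway genes there, 0 counted as higher and 2 as lower, the Y box factor Nfyc (28 and 17 UMIs, −1.01, −1.97 to −0.09) and Ifngr2 (78 and 62 UMIs, −0.62, −1.12 to −0.12).

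Neutrophils held few class II UMIs, and their values rested on few cells. Cd74 had 79 UMIs in 239 CM cells (23.0 CP100k) and 747 in 1385 TCM cells (32.5), a log2 ratio of 0.50 (0.16 to 0.85). H2-Aa had 27 and 311 UMIs (0.78, 0.21 to 1.41), H2-Ab1 5 and 167 (2.32, 1.07 to 3.96) and H2-Eb1 10 and 159 (1.25, 0.33 to 2.34). By the rule 3 of 5 members counted as higher, where 6.35% of the 5875 genes did. The 10 richest TCM cells held 70.7% of the H2-Ab1 UMIs, and free RNA as estimated would give 110% of the class II UMIs in each library. Without the 2 CM and 21 TCM cells that carried 2 B, dendritic or interstitial macrophage markers, the summed level was 38.2 CP100k in CM and 29.3 in TCM, so the order of the libraries turned.

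**Figure D4:**
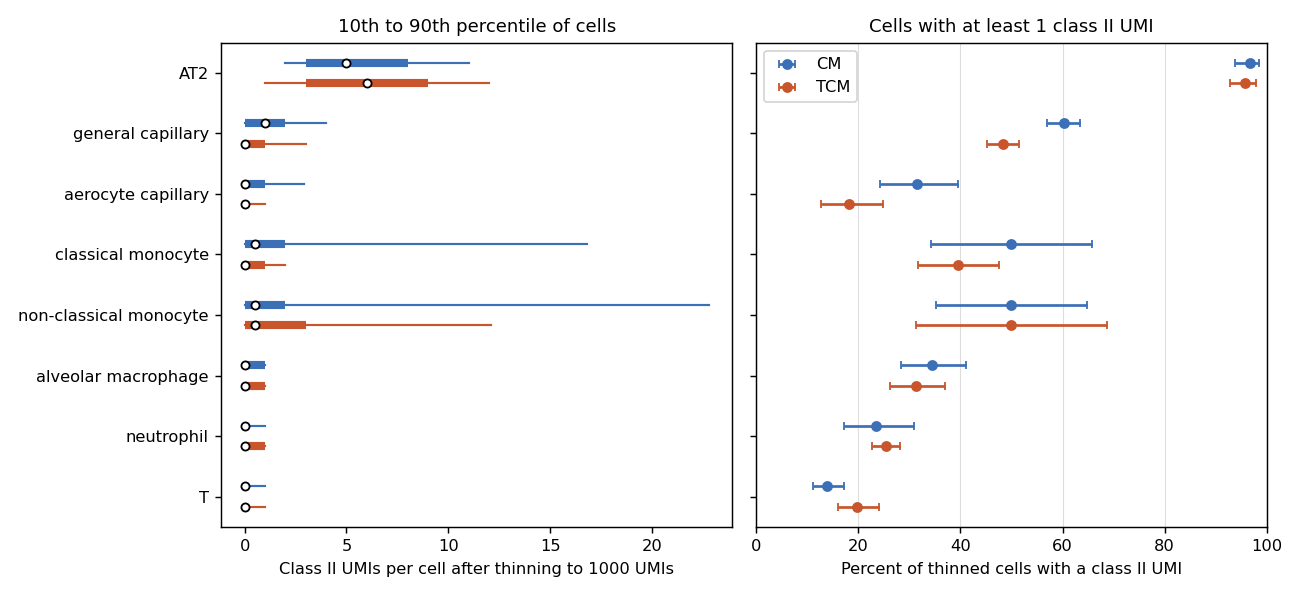
Class II UMIs per cell after thinning every cell to 1000 UMIs, for 8 classes with CM in blue and TCM in orange; on the left, thin lines run from the 10th to the 90th percentile, thick lines over the middle quartiles and circles mark the median; on the right, the percent of thinned cells with a class II UMI and its 95% binomial interval. General capillary cells fall from 60.2% to 48.3%, AT2 cells stay at 96.6% and 95.8%, and monocytes have a median at or below 0.5 UMIs with a long upper tail.

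Single members counted in 3 further classes with few class II UMIs. In AT1 cells, the thin cells of the alveolar wall, H2-Ab1 had 58 and 102 UMIs (log2 ratio 0.96, 0.48 to 1.45), 1 of 5 members higher where 2.34% of all genes were. The 10 richest TCM cells held 85.3% of those UMIs. In T cells H2-Aa had 37 and 44 UMIs (0.72, 0.05 to 1.39), 1 of 6 members higher beside 3.21% of all genes. In fibroblasts H2-Eb1 had 61 and 29 UMIs (−0.83, −1.52 to −0.17), 1 of 6 members lower beside 2.37%. Free RNA as estimated would account for 39.9% and 49.8% of the class II UMIs of AT1 cells, 85.1% and 181% of those of fibroblasts, and 150% and 235% of those of T cells. Each of the 3 ratios took the opposite sign when cells were taken by cluster.

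The kept cells of the CM library held 191740 class II UMIs (740 CP100k) and those of the TCM library 169572 (630 CP100k). B cells supplied 26.7% of them in CM and 16.7% in TCM, dendritic cells 18.4% and 28.5%, interstitial macrophages 14.8% and 14.8%, AT2 cells 4.53% and 6.42%, general capillary cells 3.09% and 2.55% and monocytes 1.55% and 1.16%. Cells that no gate placed held 28.3% and 26.8%, and those UMIs were not assigned to a class.

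By the fold alone, without the condition on the interval, the members counted were the same in general capillary cells (5 lower), monocytes (6 lower), AT2 cells, B cells and interstitial macrophages (0 each). In aerocyte capillary cells H2-Eb1 joined, for 4 lower of 4, where 8.37% of all genes were past the fold. In dendritic cells H2-Ob joined (11 and 22 UMIs, log2 ratio 0.74, −0.36 to 1.93), for 2 higher of 10 beside 12% of all genes. In neutrophils H2-DMa joined (3 and 37 UMIs, 0.88, −0.78 to 3.22), for 4 higher of 5 beside 15.8%. In alveolar macrophages H2-Eb1 was the 1 member past the fold (16 and 13 UMIs, −0.59, −1.76 to 0.56), beside 3.58% of all genes. In T cells H2-Eb1 joined (13 and 17 UMIs, 0.85, −0.28 to 2.02), for 2 higher of 6 beside 8.84% of all genes, and in fibroblasts H2-DMb2 (14 and 7 UMIs, −0.76, −2.31 to 0.65), for 2 lower of 6 beside 5.88%. Each of these added members had an interval that includes 0.

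Pathway genes past the fold alone were 0 of 25 in general capillary cells and 2 of 26, both lower, in alveolar macrophages, as before. They were 4 higher and 5 lower in monocytes (29.7% of all genes either way), 3 higher and 2 lower in dendritic cells (23.3%), 2 and 2 in AT2 cells (20.4%), 1 and 1 in B cells (19.2%), and 3 and 1 in interstitial macrophages (23.4%).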

How the data were processed

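The libraries were made with a 5-prime droplet kit of 10x Genomics. Per the labels and the methods, reads were mapped with Cell Ranger (version 4 per the file headers) to mm10 (GRCm38.p6), and the authors deposited raw UMI counts per gene and droplet, 737280 barcodes per library, with no normalization. Seurat is also named in the submitters' processing notes. Groups came from the treatment label. Positions came from GENCODE vM21, which held 32158 of the 32286 feature identifiers.

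Members, marker lists and the pathway list were chosen with earlier results of these data known. After values were seen, counts past the fold were limited to intervals leaving out 0, classes shown to at least 30 cells, and members and immunoglobulin genes set aside in naming clusters. A marker counted as present where its UMIs exceeded what 300 free UMIs would give at a tail of 0.05. A class needed 3 markers, a lead of 2 over other classes, and fewer than 3 markers of another compartment. Of 10947 cells named by both gate and cluster, 96.0% had the same class. Clusters came from leidenalg 0.10.2 in scanpy 1.11.5, without members and pathway genes. Scrublet called 2 CM and 0 TCM cells and had not worked, so no doublet was removed except in 1 alternative.

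UMIs were summed per class and library. Intervals at 95% were taken from scipy 1.17.1: exact Poisson bounds of sums, Clopper-Pearson bounds of shares and conditional binomial bounds of ratios. A ratio was not taken where both sums were at most 3. Named were all members in classes with at least 50 cells per library (smaller classes only beside their parent), up to 4 pathway genes per class past the fold with an interval leaving out 0, and the 5 genes nearest in pattern. The ratio and its interval were tried on simulated sums with counting error alone, which the interval assumes. Whether it holds where few cells carry most UMIs was not tested. Alternatives were other classes, filters, depths, scalings and free RNA corrections. Of the 42 symbols of the pathway list, 5 had no feature. Among these were Marchf1 and Marchf8, other symbols of March1 and March8, which were analysed.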

Additional observations from a re-analysis of the deposited data

How the results depend on the processing

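With 1 library per group, all values describe those libraries. The median ratio of the members kept its direction in general capillary cells and monocytes under every alternative. In general capillary cells it ranged from −0.53 (clusters in place of gates) to −1.15 (free RNA subtracted in the amount set in each class), against −0.66, with −0.94 where 1 amount per library was subtracted. In monocytes, against −1.99, it was −2.20 with clusters, −1.67 as a mean over cells, −1.36 with cells thinned to 1000 UMIs, −2.17 with free RNA subtracted, −2.18 with its amount set in each class and −1.69 without cells carrying markers of presenting cells. The last of these, the subtraction of the UMIs found per T cell and ratios relative to the median of all genes were chosen after seeing the data. The amount of free RNA set in each class was computed first and replaced by 1 amount per library after it came to 40.5% and 33.8% of the UMIs of AT2 cells. In AT2 cells the median ran from −0.27 to 0.12, against −0.03, and in B cells from −0.03 to 0.17, against 0.05, so its sign was not fixed in either class.

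Several values turned round, and the cause was not tested. With clusters in place of gates, the median was −0.81 in AT1 cells (against 0.49) and 0.23 in aerocyte capillary cells (against −0.87). Single ratios were then −0.78 for H2-Ab1 in AT1 cells (against 0.96), −0.13 for H2-Aa in T cells (against 0.72), 0.40 for H2-Eb1 in fibroblasts (against −0.83), 0.49 for H2-Ab1 in aerocyte capillary cells (against −0.74), and in neutrophils −0.99 for H2-Aa, −0.26 for H2-Ab1 and −1.35 for H2-Eb1 (against 0.78, 2.32 and 1.25). Without the top doublet scores, the AT1 median was −0.51 and H2-Ab1 in AT1 cells −0.06. As a mean over cells, the median was −0.20 in AT1 cells and 0.01 in interstitial macrophages (against −0.19), and H2-Aa in neutrophils −0.18. Thinning gave −0.03 for H2-Eb1 in neutrophils. Without cells carrying markers of presenting cells, neutrophils had −0.43 for H2-Aa and −0.33 for H2-Eb1. Of 26 called ratios, 18 of the 25 that clusters could give kept their direction. The 26 include ratios of all endothelial cells beside those of the capillary classes within them. The same UMIs thus enter repeatedly, and the share is not one of independent ratios. No paired analysis was possible because each group has 1 library and no result comes from a test.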
